A study of Mus musculus with 12 samples.

Results

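The Platr genes encode pluripotency-associated transcripts of the mouse, and most of them are long noncoding RNAs, transcripts that are not known to be translated into a protein. Members were chosen by name alone, as every listed gene whose symbol is Platr followed by a number. There were 30 such genes among the 54446 gene identifiers listed in each of 12 RNA-seq libraries. Of these, 25 reached 1 TPM (a gene's share of the library's transcripts, corrected for length) in at least 1 library and are described singly. For 22 of them the average of the 12 libraries was 1 TPM or higher, and these were tested among 15727 genes, while the other 8 were too low to be tested.

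The libraries come from mouse embryonic stem (ES) cells of 2 lines, KH and DNMT3ABKO, after 0, 72 and 144 h in INK128, which blocks the growth-promoting mTOR kinase, with 2 replicates in each of the 6 groups. DNMT3ABKO cells lack Dnmt3a and Dnmt3b, the enzymes that set new DNA methylation, and the 0 h cells of each line were untreated. The labels place E14 before both line names, whereas the methods call the wild-type line KH2 and state that KH2 and knockout cells were kept on feeders (growth-arrested fibroblasts) and sorted as viable single cells. Each genotype is 1 line, and no untreated culture was sampled at 72 or 144 h. The study states that its experiments were repeated independently, but the labels only number the libraries of a group, so p-values measure the spread between these samples.

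The name Platr was given to transcripts that are present in undifferentiated ES cells and fall when those cells differentiate. Long noncoding RNAs of this kind can act on the gene beside them, bind proteins or chromatin, or be by-products of an active promoter, and for most Platr genes no function is established. Platr14 has been linked to the expression of differentiation genes, and Platr4 to the choice of mesoderm and heart lineages. mTOR inhibition places ES cells in a paused state that resembles the dormant blastocyst of diapause.

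Annotation matched the name for most members. GENCODE M21 gave a long noncoding type to 28 of the 30, and Platr17 and Platr25 were protein coding there. RefSeq lists Platr17 as Smim40, a protein-coding gene, and gives Platr25 as a miscellaneous RNA. RefSeq also names Platr18 and Platr24, which the files list under the symbols Lncenc1 and Kis2 and which are therefore not members here. The members lie on 13 chromosomes, 7 of them on chromosome 2, and their exons cover 375 to 6180 bases with a median of 1314.

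Levels spanned a wide range. Platr10 had the highest mean over the 12 libraries, 139 TPM, followed by Platr14 with 82.2, Platr16 with 61.3, Platr3 with 39.1 and Platr17 with 37.2 TPM. The tested member with the lowest mean, Platr26, had 2.35 TPM, and 20 members were at 1 TPM or more in every library. Platr29 stood just inside the level for single description with a highest value of 1.09 TPM, and Platr2 just outside it with 0.846 TPM. Platr1, Platr2, Platr19, Platr23 and Platr32 never reached 1 TPM. Summed over all 30 members, the level in KH was 425 and 445 TPM before treatment, 496 and 499 TPM after 72 h, and 375 and 379 TPM after 144 h. In DNMT3ABKO the sums were 443 and 531 TPM before treatment, 673 and 669 TPM after 72 h, and 468 and 492 TPM after 144 h. In each line both 72 h sums lay above the sums at the other times.

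Promoter windows were read for the members that frame the results. The RefSeq table (GRCm38.p6, 250 bases before to 50 bases after the start) held 15 windows of 13 members. Platr7 and Platr30 are shown because they had the highest log2 responses at 72 h, Platr20 because another gene lies beside it, and Platr10 and Platr14 because they were the most abundant members and were lower at 144 h in both lines. Capitals mark a searched motif, and each sequence runs 5′ to 3′ on the gene's strand. The windows are Platr7 at chr10:84553289-84553588 (minus strand), Platr30 at chr3:96345037-96345336 (plus), Platr20 at chr11:51220369-51220668 (minus), Platr10 at chr3:75655682-75655981 (minus) and Platr14 at chr2:104559209-104559508 (plus).
Platr7: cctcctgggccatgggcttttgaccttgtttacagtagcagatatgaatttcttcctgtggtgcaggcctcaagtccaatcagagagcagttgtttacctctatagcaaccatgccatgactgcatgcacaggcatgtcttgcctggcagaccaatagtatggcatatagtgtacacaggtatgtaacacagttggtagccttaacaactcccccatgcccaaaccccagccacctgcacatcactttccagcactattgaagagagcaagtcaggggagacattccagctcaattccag
Platr30: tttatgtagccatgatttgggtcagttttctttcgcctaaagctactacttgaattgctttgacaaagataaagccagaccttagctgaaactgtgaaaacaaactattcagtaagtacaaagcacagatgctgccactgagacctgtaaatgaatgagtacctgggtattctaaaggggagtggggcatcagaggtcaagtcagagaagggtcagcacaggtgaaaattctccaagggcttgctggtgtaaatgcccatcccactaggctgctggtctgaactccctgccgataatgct
Platr20: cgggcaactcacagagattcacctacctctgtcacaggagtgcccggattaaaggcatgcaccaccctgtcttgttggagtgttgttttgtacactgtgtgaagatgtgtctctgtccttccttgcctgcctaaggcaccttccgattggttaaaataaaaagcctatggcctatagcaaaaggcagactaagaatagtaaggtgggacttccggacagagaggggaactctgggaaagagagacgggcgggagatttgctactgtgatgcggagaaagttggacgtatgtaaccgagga
Platr10: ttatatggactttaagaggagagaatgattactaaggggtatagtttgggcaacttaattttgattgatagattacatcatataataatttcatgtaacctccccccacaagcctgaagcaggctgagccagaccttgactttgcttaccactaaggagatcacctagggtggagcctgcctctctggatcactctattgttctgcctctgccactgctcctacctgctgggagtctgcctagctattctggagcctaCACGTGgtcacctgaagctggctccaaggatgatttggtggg
Platr14: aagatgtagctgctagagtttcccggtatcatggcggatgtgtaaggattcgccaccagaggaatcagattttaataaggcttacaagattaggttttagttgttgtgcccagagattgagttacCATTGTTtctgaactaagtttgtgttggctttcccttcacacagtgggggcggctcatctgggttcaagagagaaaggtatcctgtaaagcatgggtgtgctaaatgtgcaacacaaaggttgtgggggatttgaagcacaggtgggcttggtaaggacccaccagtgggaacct

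Several short motifs were searched on both strands, and none of their letter strings contains another. The octamer ATGCAAAT, read by Pou5f1, was found in a window of Platr21 and in 1.74% of all 32851 windows. The Sox motif CATTGTT was found in Platr8 and in Platr14, where it lies 125 bases before the RefSeq start, against 3.78% of all windows. The Klf motif CCACACCC was found in Platr26 (3.56% of all windows) and the E-box CACGTG, read by Tfe3 and Myc, in Platr10, 8 bases after the start (7.15% of all windows). The Esrrb motif TCAAGGTCA (0.423% of all windows) and the E2f motif TTCCCGC (4.60%) were in none of the members' windows. The members' windows held a median of 4 CG dinucleotides, from 0 in Platr7 to 9 in Platr20, and all windows a median of 7. CG is the dinucleotide that Dnmt3a and Dnmt3b methylate, and methylation was not measured in these libraries. The RefSeq start used for Platr14 lies 296 bases downstream of the GENCODE start. Its window and the Sox motif in it therefore lie inside the gene as GENCODE places it.

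Shared sequence limits what can be read from some members. Of all 50-base words in a member's transcripts, none stood in a transcript of another gene for 15 of the 30 members, 12 of them tested. Among the tested members, 5 shared 10% or more of their words. Platr30 shared 92.0% with Gm17575, a noncoding gene on the opposite strand of the same chromosome (chr3:96375646-96388864). Platr16 shared 39.3% with Gm13230, a pseudogene that overlaps it on the same strand (chr4:145446740-145450888). The shares were 21.9% for Platr17, 19.2% for Platr15 and 15.3% for Platr13. The sources used here do not state how reads that match several genes were assigned, so the values of these 5 genes are uncertain, those of Platr30 most of all. The choice of Gm17575 and Gm13230 for closer description was made with their values known.

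The line labels were checked with the targeted genes. Dnmt3b was 257 ± 2.53 TPM (SD, n = 2) in KH and 26.9 ± 0.966 in DNMT3ABKO at 0 h, and Dnmt3a was 56.2 ± 2.14 and 9.45 ± 2.97 TPM. Both were also lower in DNMT3ABKO at 72 and 144 h. The ES cell genes Pou5f1, Sox2 and Nanog were present in every group, with group means of 825 to 1119, 185 to 327 and 186 to 274 TPM. The 2 DNMT3ABKO libraries at 0 h differed most from each other, with a pooled SD between replicates of 0.27 on the log2(TPM + 1) scale against 0.13 to 0.18 in the other groups. Depth is not known from TPM, so no counting interval is given, and values of low members carry an error that cannot be stated.

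The first comparison asks how the Platr genes moved during 72 h of mTOR inhibition in the wild-type line. Most of them rose: 15 of the 22 tested members were called higher and 1 lower in KH at 72 h than at 0 h (limma on log2(TPM + 1), Benjamini-Hochberg adjusted p under 0.05). Over all tested genes 28.3% were called higher and 19.5% lower, and over the 940 other long noncoding genes tested 38.1% were called higher and 4.57% lower. The median difference on that scale was 0.52 over the 22 members, 0.08 over all tested genes and 0.30 over the other long noncoding genes. TPM are shares of a library and no spike-in scaling was used here. Every rise or fall is therefore relative to the other transcripts and need not be one per cell. With spike-in scaling, the study reports that the transcriptome of wild-type cells was repressed globally under mTOR inhibition. It reports a decrease of global transcription in Dnmt3a/b knockout cells as well.

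Platr7 had the highest response. Its level in KH was 2.93 and 2.61 TPM before treatment, 26.8 and 26.3 TPM after 72 h, and 20.7 and 20.9 TPM after 144 h. The 72 h mean, 26.5 ± 0.322 TPM (SD, n = 2), was 9.58 times the 0 h mean of 2.77 ± 0.233, a log2 difference of 2.87 ± 0.09 (SE, adjusted p = 8.62e-08, limma). All treated libraries lay far above both untreated ones. Platr7 shared no 50-base word with another gene, its RefSeq and GENCODE starts are identical, and its promoter window, shown first above, holds no CG.

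Platr30 came next. It was at 0.592 and 0.566 TPM in KH at 0 h, at 5.05 and 5.82 at 72 h, and at 1.63 and 2.25 at 144 h. Its log2 difference at 72 h was 2.02 ± 0.13 (SE, adjusted p = 3.25e-06, limma). Gm17575, which shares most of its sequence, moved with it, from 0.569 ± 0.00109 TPM at 0 h to 4.58 ± 0.0798 at 72 h and 1.73 ± 0.258 at 144 h (SD, n = 2), and the reads of these genes cannot be told apart here.

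The other called rises were smaller. Platr22 rose from 2.26 and 2.94 TPM to 9.31 and 8.30 (log2 difference 1.45 ± 0.16, SE), and Platr25 from 7.35 and 9.21 to 22.0 and 22.9 TPM (1.35 ± 0.16). Platr20 rose from 2.80 and 3.06 to 7.79 and 7.31 TPM (1.12 ± 0.10). Groups did not overlap in any of these 3 genes, but they were picked as called, so this adds no support to the calls. Platr13 rose from 2.78 ± 0.505 to 7.11 ± 0.0183 TPM (SD, n = 2), Platr28 from 1.33 ± 0.00456 to 3.53 ± 0.427, and Platr5 from 2.42 ± 1.25 to 6.17 ± 0.682 TPM. Platr4, Platr21, Platr15, Platr3, Platr6, Platr8 and Platr17 rose by 0.32 to 0.60 on the log2 scale. Of the 15 rises, 9 were called under every alternative that kept the call rule (with a log2 difference of at least 1 also required, 7 of the 16 calls were left), and those of Platr3, Platr6, Platr8, Platr15, Platr17 and Platr21 were lost when single libraries were left out (for Platr8, any of 8 libraries, and for Platr21, any of 9), with log2 differences between 0.21 and 0.85 over all alternatives. With the replicate number as a block, Platr8 was not called (adjusted p = 0.0519) and Platr16 was (0.40, adjusted p = 0.0439, limma). When low genes were kept in the fit, Platr3, Platr6, Platr8 and Platr21 were not called (adjusted p of 0.0831 to 0.131).

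Platr14 went the other way. It was at 114 and 121 TPM in KH at 0 h, at 77.8 and 74.6 at 72 h, and at 41.0 and 36.3 at 144 h. No group overlapped another. The log2 difference at 72 h was -0.62 ± 0.09 (SE, adjusted p = 3.31e-04, limma). Platr10, the most abundant member, was at 149.6 and 161 TPM at 0 h and at 146 and 152 at 72 h, with overlapping ranges and a log2 difference of -0.05 ± 0.08 (adjusted p = 0.606). Platr11, Platr12, Platr16, Platr26 and Platr27 were not called either, with log2 differences of -0.05 to 0.40.

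Other RNA in the libraries moved at the same time. The summed level of 14 fibroblast markers, which would mark feeder cells, fell in KH from 1683 to 1844 TPM at 0 h to 526 to 554 at 72 h and 106 to 108 at 144 h, and all 13 tested markers were lower at 72 h. In DNMT3ABKO the sums were 1925 to 1938, 406 to 447 and 109 to 118 TPM. No fibroblast marker was at 0 in both libraries of a group. The sum of 12 macrophage markers fell from 328 to 359 TPM in KH at 0 h to 239 to 248 at 72 h and 38.7 to 40.3 at 144 h. Their sums in DNMT3ABKO were 282 to 314, 163 to 166 and 55.3 to 57.9 TPM, and 1 macrophage marker was at 0 in both KH libraries at 144 h, none in the other groups. Of the 12, 8 were lower and 2 higher in KH at 72 h, and 9 lower and 1 higher in DNMT3ABKO. In bulk RNA, fewer cells of a type and less RNA per cell cannot be told apart, and the part of these shifts in the Platr changes was not tested. Of the 20 naive and core pluripotency genes, the factors that hold ES cells undifferentiated, 18 were called higher and 1 lower in KH at 72 h, with a median log2 difference of 0.54. Of 11 tested genes of exit from pluripotency and lineage entry, such as Fgf5, Otx2, Gata6, Sox1 and Pax6, 3 were higher and 5 lower at 72 h in each line, and 4 higher and 6 lower at 144 h. This list includes Dnmt3b, which is targeted in DNMT3ABKO. From 0 to 144 h in KH, Sox1 went from 0.492 and 0.521 to 13.3 and 13.4 TPM. Over the same time Fgf5 went from 11.5 and 11.8 to 0.553 and 0.893 TPM.

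**Figure D1:**
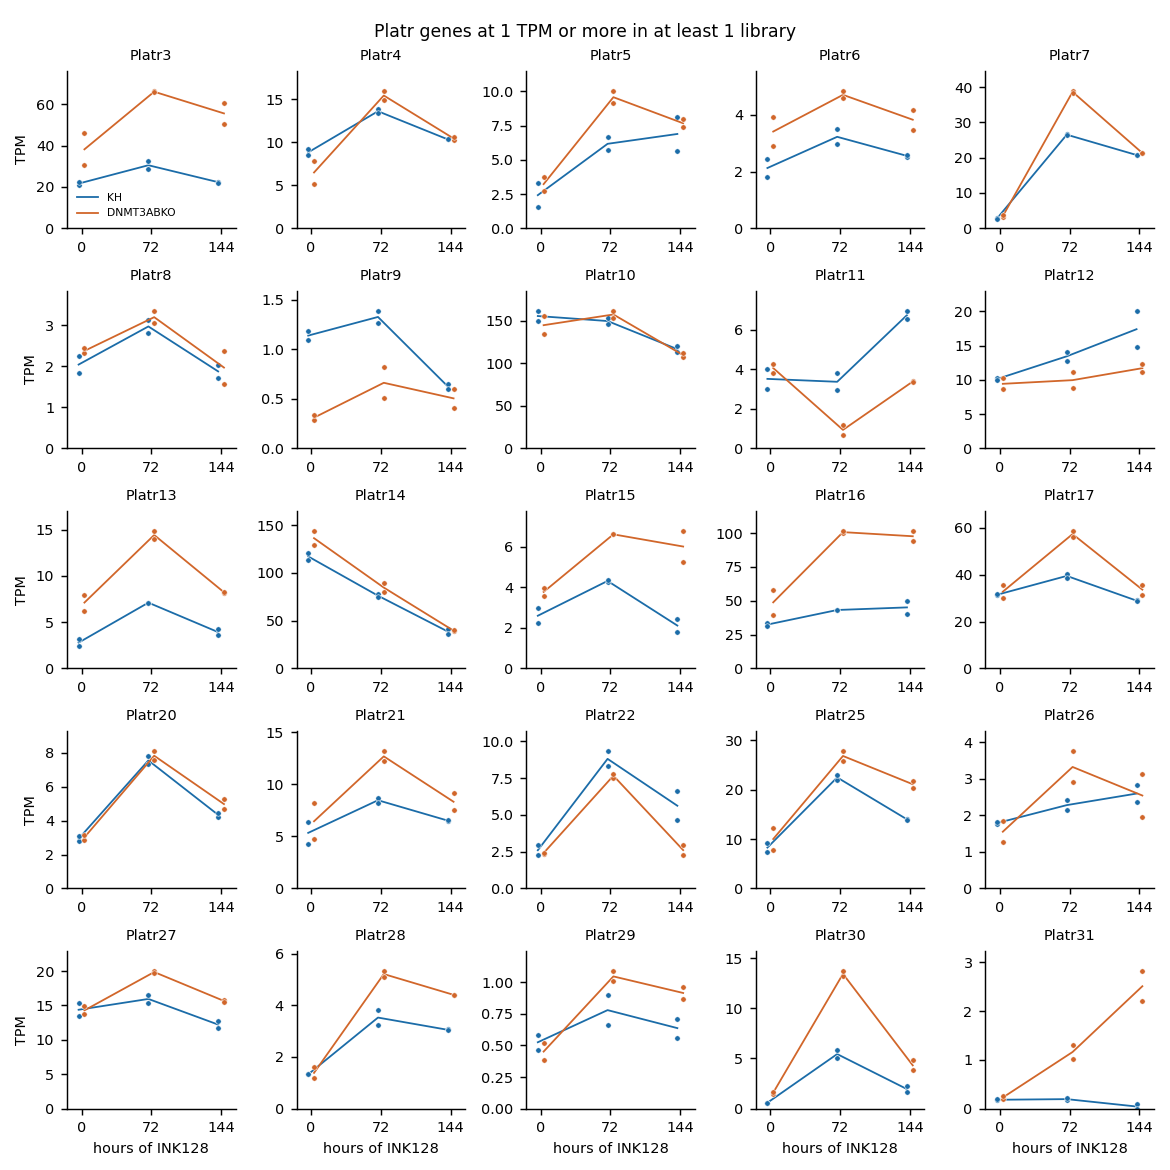
Level of each Platr gene at 1 TPM or more in at least 1 library (y axis, TPM, from 0, scaled per gene) against hours of INK128 (x axis) in KH (blue) and DNMT3ABKO (orange); points are single libraries, shifted slightly sideways by line, and lines join the means of 2. Most genes peak at 72 h in both lines, Platr14 falls at each step, Platr11 dips at 72 h in DNMT3ABKO to 0.933 TPM, and Platr31 climbs in DNMT3ABKO only to 2.51 TPM.

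At 144 h fewer members were called higher. In KH, 11 members were called higher and 2 lower at 144 h than at 0 h, where 27.4% of all tested genes were higher and 23.9% lower, and the members' median log2 difference was 0.37. Of the other long noncoding genes 39.3% were higher and 7.87% lower, with a median of 0.31. Platr7 remained at 7.50 times its untreated mean (log2 difference 2.53 ± 0.09, SE, adjusted p = 1.77e-08, limma), and Platr5, Platr22, Platr30, Platr28, Platr12 and Platr11 were higher by 0.71 to 1.24. Platr14 reached 38.6 ± 3.35 TPM (SD, n = 2), 0.329 of its untreated mean, with a log2 difference of -1.58 ± 0.09 (SE, adjusted p = 4.14e-07). Platr10 was now also lower, at 113 and 119.9 TPM, below both untreated libraries (-0.41 ± 0.08, adjusted p = 0.00171). The calls of Platr13 and Platr16 did not hold under every alternative: leaving out replicate 2 of KH at 0 h or replicate 1 of KH at 144 h took Platr13 to 0.25 and 0.30, and leaving out either KH replicate at 0 h or replicate 2 at 144 h took Platr16 to between 0.30 and 0.52.

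The step from 72 to 144 h was mostly downward in KH. Here 12 members were called lower and 1 higher, while 15.6% of all tested genes were lower and 7.24% higher, and the members' median was -0.36. Of the other long noncoding genes 10.9% were lower and 8.30% higher. Without either KH replicate at 72 h the count of calls was 7, and without replicate 1 of KH at 144 h it was 8. Platr30 fell from 5.44 ± 0.545 to 1.94 ± 0.434 TPM (SD, n = 2, log2 difference -1.14 ± 0.13, SE), Platr14 by 0.96 and Platr15 by 0.78 on the log2 scale. Platr15 thereby returned to 2.42 and 1.81 TPM, a range that overlaps its 0 h libraries (2.98 and 2.23). The exception was Platr11, which went from 3.79 and 2.94 TPM at 72 h to 6.94 and 6.54 at 144 h (0.83 ± 0.16, adjusted p = 0.00468). Of the 13 calls, 6 held under every alternative that kept the call rule (Platr11, Platr13, Platr14, Platr15, Platr20 and Platr30). Those of Platr7, Platr8, Platr10, Platr17, Platr22, Platr25 and Platr27 were lost without single libraries, most of them of KH at 72 or 144 h, with log2 differences of -0.80 to -0.29 over all alternatives.

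The same question was asked of cells without Dnmt3a and Dnmt3b. In DNMT3ABKO at 72 h, 17 members were called higher and 2 lower than at 0 h, with a median log2 difference of 0.86. Over all tested genes 34.3% were higher and 21.6% lower, and over the other long noncoding genes 51.8% and 6.70%. Platr7 rose from 3.14 and 3.74 TPM to 38.9 and 38.5, a log2 difference of 3.16 ± 0.09 (SE, adjusted p = 1.74e-08, limma). Platr30 rose from 1.50 and 1.67 to 13.2 and 13.7 TPM (2.48 ± 0.13), and Gm17575 from 1.43 ± 0.135 to 11.2 ± 0.035 TPM (SD, n = 2). Platr28 rose from 1.17 and 1.60 to 5.12 and 5.32 TPM (1.39 ± 0.11). All of these treated libraries lay above the untreated ones, which for genes picked as called adds no support.

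Platr25, Platr22, Platr5, Platr4 and Platr20 rose by 1.14 to 1.37 on the log2 scale in DNMT3ABKO, and Platr16 by 1.05 from 39.7 and 58.0 to 100.2 and 101 TPM. The remaining rises were 0.38 to 0.93. Platr14 fell from 129 and 144 to 79.7 and 89.7 TPM (-0.68 ± 0.09, SE). Platr11 fell from 4.29 and 3.83 to 1.18 and 0.682 TPM (-1.40 ± 0.16, adjusted p = 5.50e-05, limma). Of the 19 calls, 18 held under every alternative that kept the call rule, and that of Platr6 (0.38) did not: it was lost without any of 9 libraries, and without replicate 1 of DNMT3ABKO at 0 h the difference was 0.21. The pluripotency list had 14 genes higher and 2 lower in this comparison, with a median of 0.35.

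The KH and DNMT3ABKO responses share no library, but the fit takes each gene's spread from all 12 libraries. Their calls are therefore not independent and are set side by side as a description. At 72 h, 14 members were called higher in both lines, 93.3% of the 15 in KH and 82.4% of the 17 in DNMT3ABKO. Over all tested genes, those higher in both lines made up 81.8% of the KH list and 67.4% of the DNMT3ABKO list. These were Platr3, Platr4, Platr5, Platr6, Platr7, Platr13, Platr15, Platr17, Platr20, Platr21, Platr22, Platr25, Platr28 and Platr30. Platr14 was lower in both. Platr8 was called in KH alone and Platr16, Platr26 and Platr27 in DNMT3ABKO alone, but the difference in response was not called for any of these 4. At 144 h against 0 h, 7 members were higher in both lines, 63.6% of each list, against 76.9% and 67.1% over all tested genes, and Platr10 and Platr14 were lower in both.

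**Figure D2:**
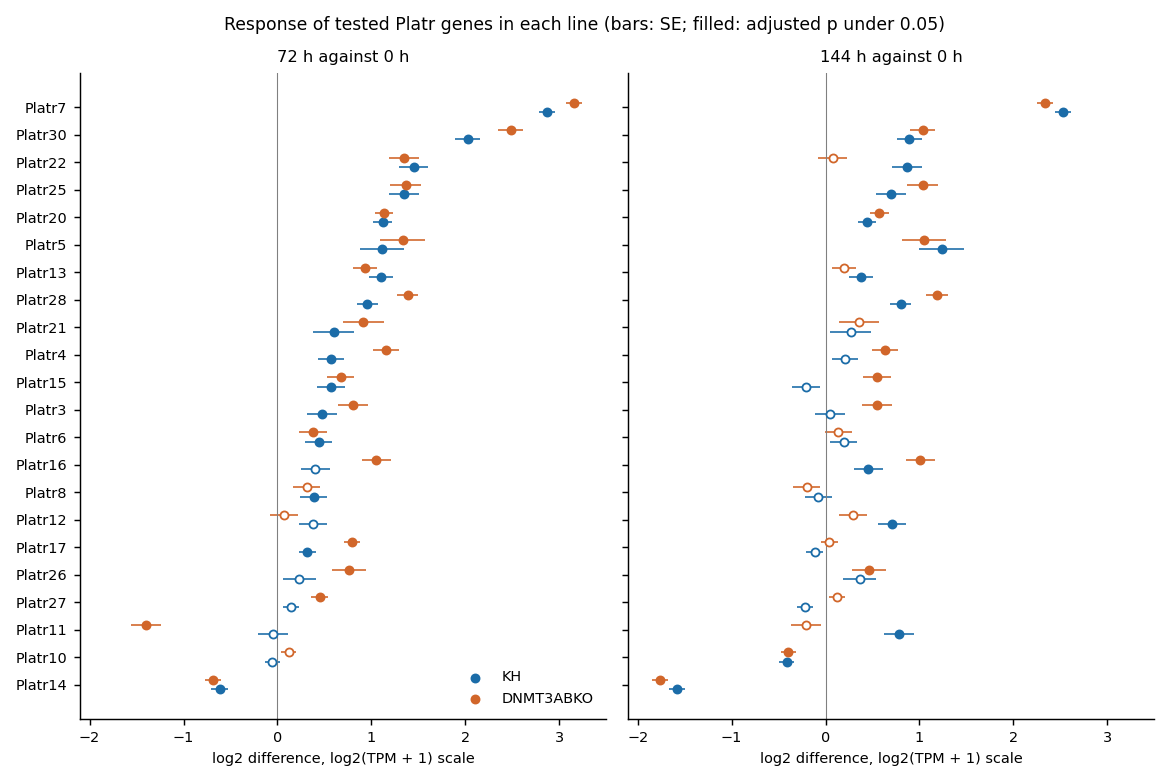
Difference from 0 h (x axis, log2 difference on the log2(TPM + 1) scale) of the 22 tested Platr genes (y axis) at 72 h (left) and 144 h (right) in KH (blue) and DNMT3ABKO (orange); bars are standard errors from limma and filled points were called at an adjusted p under 0.05. Platr7 stands apart at 2.87 and 3.16 at 72 h, Platr30 follows, most other members lie between 0 and 1.5, and Platr11 is the member on which the lines part, at -0.05 in KH and -1.40 in DNMT3ABKO.

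In DNMT3ABKO at 144 h, 11 members were higher and 2 lower than at 0 h, against 31.4% and 26.2% of all tested genes, and the median was 0.41. Of the other long noncoding genes 47.3% were higher and 8.40% lower, with a median of 0.37. Platr7 had come down to 21.4 and 21.2 TPM, close to its KH level at this time, and was still 6.20 times its untreated mean. Platr28 stayed at 4.41 ± 0.00131 TPM (SD, n = 2, log2 difference 1.19 ± 0.11, SE), and Platr5, Platr25, Platr30 and Platr16 were higher by 1.01 to 1.05. Platr14 was at 39.1 and 40.0 TPM (-1.76 ± 0.09, adjusted p = 9.86e-08, limma), 0.290 of its untreated mean. Platr10 was at 107 and 112 TPM, below both untreated libraries of 134 and 155 (-0.40 ± 0.08). Platr22, which was still at 2.16 times its untreated mean in KH, was at 2.29 and 2.92 TPM here beside 2.37 and 2.44 at 0 h. The calls of Platr3, Platr15 and Platr26 depended on single libraries: Platr3 went from 0.55 to 0.27 without replicate 1 of DNMT3ABKO at 0 h and to 0.42 without replicate 2 at 144 h, and Platr15 from 0.55 to 0.39 and Platr26 from 0.46 to 0.22 without replicate 1 at 144 h. The call of Platr26 was lost without any of 10 libraries and with the replicate number as a block (adjusted p = 0.0676, limma).

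From 72 to 144 h in DNMT3ABKO, 11 members were lower and 1 higher, against 18.5% and 8.81% of all tested genes and 13.4% and 10.0% of the other long noncoding genes, with a median of -0.42. Platr30 fell by 1.45, Platr22 by 1.27, Platr14 by 1.08 and Platr7 by 0.83 on the log2 scale. Platr11 was again the exception and rose by 1.19 ± 0.16 (SE, adjusted p = 3.92e-04, limma), to 3.43 and 3.33 TPM. Set against KH, 10 members were lower in both lines over this step, 83.3% of the KH list and 90.9% of the DNMT3ABKO list (66.4% and 56.2% over all tested genes), and Platr11 was higher in both. The calls of Platr4, Platr8 and Platr27 were lost without single DNMT3ABKO libraries, with log2 differences of -0.71 to -0.25 over all alternatives.

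The lines were then compared at each time. Before treatment 3 members were called higher in DNMT3ABKO and 0 lower, where 4.92% of all tested genes were higher and 4.14% lower, and 5.43% and 3.62% of the other long noncoding genes. This count was unstable: it was 7 with median-ratio scaling, 7 and 5 without replicate 1 or 2 of DNMT3ABKO at 0 h, and 1 without replicate 2 of KH at 0 h. At an unadjusted p under 0.05, 8 members were higher and 1 lower, against 9.97% and 14.1% of all tested genes, and the median log2 difference over the 22 was 0.19. Platr13 was at 7.98 and 6.25 TPM in DNMT3ABKO and at 3.14 and 2.43 in KH (1.10 ± 0.13, SE, adjusted p = 5.12e-04, limma), and this call held under every alternative that was run. Platr3 was at 30.5 and 45.9 against 20.9 and 22.3 TPM (0.77 ± 0.16), and Platr30 at 1.50 and 1.67 against 0.592 and 0.566 TPM (0.71 ± 0.13). The groups did not overlap in any of the 3, which for genes picked as called adds no support. The call of Platr30 was lost without replicate 2 of KH at 0 h (0.70), and that of Platr3 without either KH replicate (0.72 and 0.81).

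At 72 h DNMT3ABKO had 9 members higher and 1 lower, against 9.26% and 10.0% of all tested genes and 11.7% and 5.53% of the other long noncoding genes, and the median was 0.41. Platr16 was at 100.2 and 101 TPM against 43.2 in both KH libraries (1.20 ± 0.15, SE), and Gm13230, with which it shares exons, at 121 ± 13.0 against 37.4 ± 4.34 TPM (SD, n = 2). Platr30 was at 13.4 ± 0.341 against 5.44 ± 0.545 TPM (1.17 ± 0.13), and Gm17575 at 11.2 ± 0.035 against 4.58 ± 0.0798. For both genes, the gene that shares their sequence was thus higher too. Its level may rest on the same reads, so this adds no support.

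Platr3, which shares no word with another gene, was at 66.4 and 65.9 TPM in DNMT3ABKO against 28.5 and 32.5 in KH (1.09 ± 0.16, adjusted p = 0.0011, limma). Platr13 was at 14.4 ± 0.560 against 7.11 ± 0.0183 TPM (SD, n = 2, 0.93 ± 0.13, SE). Platr17 and Platr7 were higher by 0.53 each, and Platr15, Platr28 and Platr27 by 0.30 to 0.52. The only lower member was Platr11 (-1.18 ± 0.16, adjusted p = 6.63e-04). The calls of Platr15, Platr27 and Platr28 were lost without single libraries (for Platr27, any of 8), with log2 differences of 0.25 to 0.61 over all alternatives. With the replicate number as a block, Platr27 was not called (adjusted p = 0.0695) and Platr5 was (0.56, adjusted p = 0.0328, limma).

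At 144 h, 8 members were higher and 3 lower in DNMT3ABKO, against 11.0% and 15.5% of all tested genes and 13.5% and 12.8% of the other long noncoding genes, and the median was 0.18. Without either DNMT3ABKO replicate at 144 h the count of calls was 7. Platr3 was at 50.6 and 60.6 TPM against 22.6 and 22.1 (1.27 ± 0.16, SE), Platr16 at 94.1 and 101 against 40.0 and 50.2 (1.11 ± 0.15), and Platr13 at 8.15 and 8.30 against 4.21 and 3.62 TPM (0.91 ± 0.13). Platr15 was at 6.77 and 5.27 against 2.42 and 1.81 TPM (1.17 ± 0.15, adjusted p = 2.75e-04, limma). Platr22 was lower, at 2.29 and 2.92 against 4.62 and 6.62 TPM (-0.87 ± 0.16, adjusted p = 0.00301), and so were Platr11 and Platr12. Groups overlapped in none of these genes, which for genes picked as called adds no support. Platr3, Platr13 and Platr30 were thus called higher in DNMT3ABKO at all 3 times. These times share no libraries, but the fit takes each gene's spread from all of them, and the lines are the same. The calls of Platr12, Platr25, Platr27 and Platr28 were lost without single 144 h libraries: the log2 difference of Platr12 went from -0.52 to -0.31 without replicate 1 of KH and to -0.46 and -0.59 without either DNMT3ABKO replicate, and the others lay between 0.28 and 0.61 over all alternatives.

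**Figure D3:**
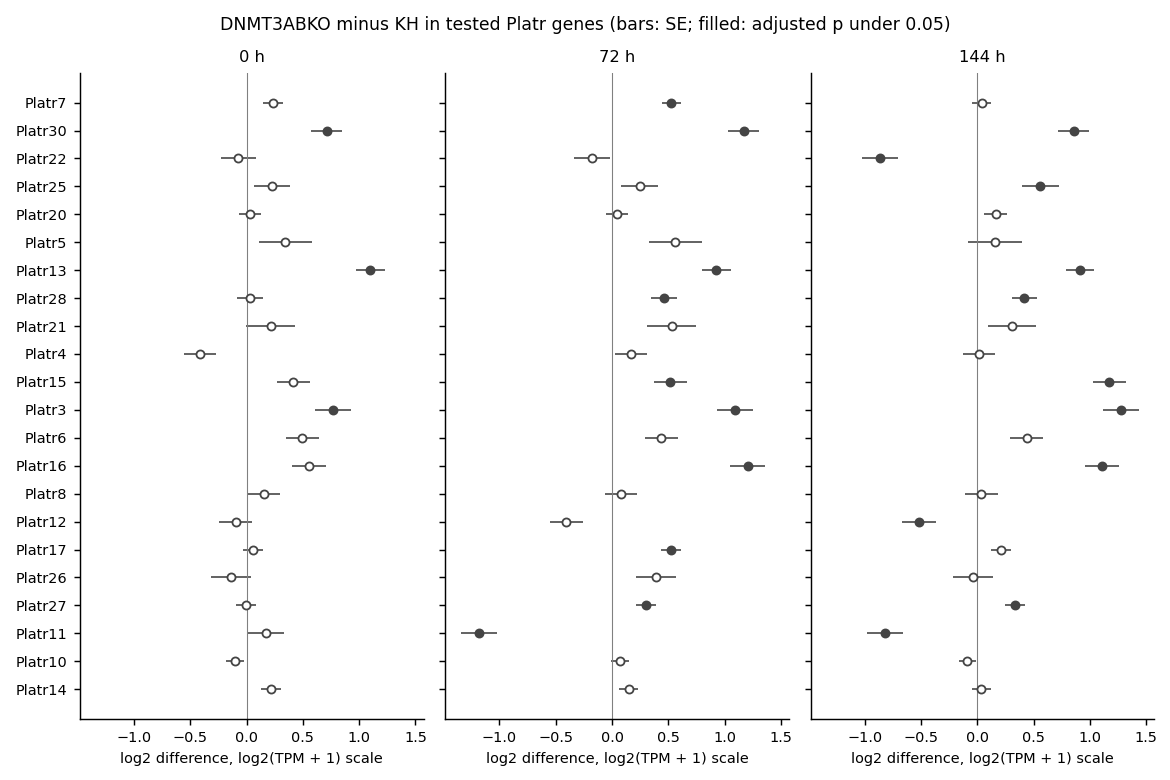
DNMT3ABKO minus KH (x axis, log2 difference on the log2(TPM + 1) scale) for the 22 tested Platr genes (y axis) at 0, 72 and 144 h; bars are standard errors from limma and filled points were called at an adjusted p under 0.05. The number of filled points goes from 3 at 0 h to 10 at 72 h and 11 at 144 h, and Platr11 moves from 0.17 at 0 h to -1.18 at 72 h.

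The 2-cell-like markers, genes of the Zscan4 and Usp17l families and others that mark an early embryonic state, also separated the lines. Their summed level was 56.8 to 63.8 TPM in DNMT3ABKO and 1.82 to 2.39 in KH at 0 h, 151 to 152 against 0.885 to 0.963 at 72 h, and 729 to 767 against 7.69 to 8.78 at 144 h. All 13 were called higher in DNMT3ABKO at each time, and 3 of them were at 0 in both KH libraries at 0 h. Most of them, such as Zfp352 and Usp17la, stayed below 1 TPM in every KH library. Those genes passed the filter on the mean only through DNMT3ABKO, so their calls add no support. The part of the 2-cell-like markers in the Platr differences was not tested. Fibroblast markers separated the lines little, with 1 of 13 higher at 0 h, 2 lower at 72 h, and 1 higher and 1 lower at 144 h. Of the 12 macrophage markers, 0 differed at 0 h, 11 were lower in DNMT3ABKO at 72 h and 6 were higher at 144 h.

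Whether a member responded differently in the 2 lines was tested directly with the interaction of line and time. Platr11 was the only member called, where 5.23% of all tested genes were called at 72 h and 8.59% at 144 h in either direction. At an unadjusted p under 0.05, 7 members were higher and 1 lower at 72 h, and 5 higher and 2 lower at 144 h. Over all tested genes these shares were 10.1% and 8.05% at 72 h, and 11.7% and 11.3% at 144 h. For Platr11, the log2 response at 72 h was -0.05 in KH and -1.40 in DNMT3ABKO, a difference of -1.36 ± 0.22 (SE, adjusted p = 0.008, limma), called under all alternatives with adjusted p between 0.00612 and 0.0427. In every DNMT3ABKO library at 72 h Platr11 was below every other library. At 144 h its response was 0.79 in KH and -0.21 in DNMT3ABKO, a difference of -0.99 ± 0.22 (adjusted p = 0.0228), lost when replicate 2 of KH at 0 h (-0.83) or any 144 h library (-1.03 to -0.96) was left out. The 144 h call was also lost when low genes were kept in the fit (adjusted p = 0.054, limma). A pseudocount of 0.1 TPM ended it too (-1.19, adjusted p = 0.0586). Platr11 is a gene of 4 exon blocks on chromosome 9 (chr9:118404097-118406099, minus strand) whose exons cover 388 bases, and it shared no word with another gene.

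Several members came near the threshold. At 72 h Platr17 had a difference in response of 0.47 ± 0.13 (SE, adjusted p = 0.0631), and at 144 h Platr15 one of 0.76 ± 0.21 (adjusted p = 0.0501, and 0.047 with the replicate number as a block) and Platr22 one of -0.79 ± 0.22 (adjusted p = 0.0569, limma). The count of calls depended on the DNMT3ABKO libraries at 0 h, the most variable group. Without replicate 2 of that group, Platr3, Platr4, Platr7, Platr16, Platr17 and Platr28 joined Platr11 at 72 h, with differences of 0.39 to 0.92, and Platr3, Platr4, Platr16, Platr25 and Platr28 joined it at 144 h, with differences of 0.52 to 0.82. In that replicate the most abundant transcript of every library, Gm26917, was at 75931 TPM, against 125306 in replicate 1.

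3 members that were described singly were too low for the main test. Platr31, which lies antisense to Tigar (8.32% of its exon bases overlap Tigar exons), was at 0.196 and 0.256 TPM in untreated DNMT3ABKO, 1.02 and 1.30 TPM after 72 h, and 2.21 and 2.81 TPM after 144 h. In KH it was at 0.166 and 0.193, 0.176 and 0.210, and 0.0831 and 0 TPM. The lines lay close together before treatment and far apart at 72 and 144 h. In a fit of all genes without the filter on low values, the difference in response was 0.80 ± 0.14 at 72 h (SE, adjusted p = 0.0362, limma) and 1.69 ± 0.14 at 144 h (adjusted p = 3.73e-04). Platr31 reached 1 TPM only in treated DNMT3ABKO libraries and is described singly for that reason. The fit uses the same values, so it is a description and adds no support. Tigar, an enzyme of sugar phosphate metabolism, went from 32.6 ± 0.824 to 17.9 ± 0.782 and 19.6 ± 0.0296 TPM in DNMT3ABKO (SD, n = 2). It also fell in KH, from 31.3 ± 3.40 to 24.8 ± 1.29 and 19.8 ± 0.136 TPM. The difference between the lines in Tigar's response was -0.51 ± 0.12 at 72 h (SE, adjusted p = 0.0387, limma). At 144 h this difference was -0.08 ± 0.12 (adjusted p = 0.752, limma). A link between Tigar and Platr31 was not tested. Where exons overlap, the reads of Tigar and Platr31 cannot be told apart unless strand was used in counting. The sources do not state whether it was. Of Platr31's 50-base words, 10.0% also stood in transcripts of other genes, 5.22% in those of Tigar.

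Platr9 was the reverse. It was at 1.09 and 1.19 TPM in KH and 0.283 and 0.336 in DNMT3ABKO at 0 h, and at 1.38 and 1.27 against 0.505 and 0.819 at 72 h, and the ranges nearly met at 144 h (0.652 and 0.599 against 0.411 and 0.598). Without the filter it was called lower in DNMT3ABKO at 0 h (-0.71 ± 0.11, SE, adjusted p = 0.0147, limma) and at 72 h (-0.49 ± 0.11, adjusted p = 0.0319). It reached 1 TPM only in KH libraries and is described singly for that reason, so these calls add no support. Platr9 overlaps Cga, a pituitary hormone subunit, on the opposite strand, and Cga had a mean of 0.0859 TPM. Platr29 peaked at 1.09 and 1.01 TPM in DNMT3ABKO at 72 h and stayed below 1 TPM in all other libraries.

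**Figure D4:**
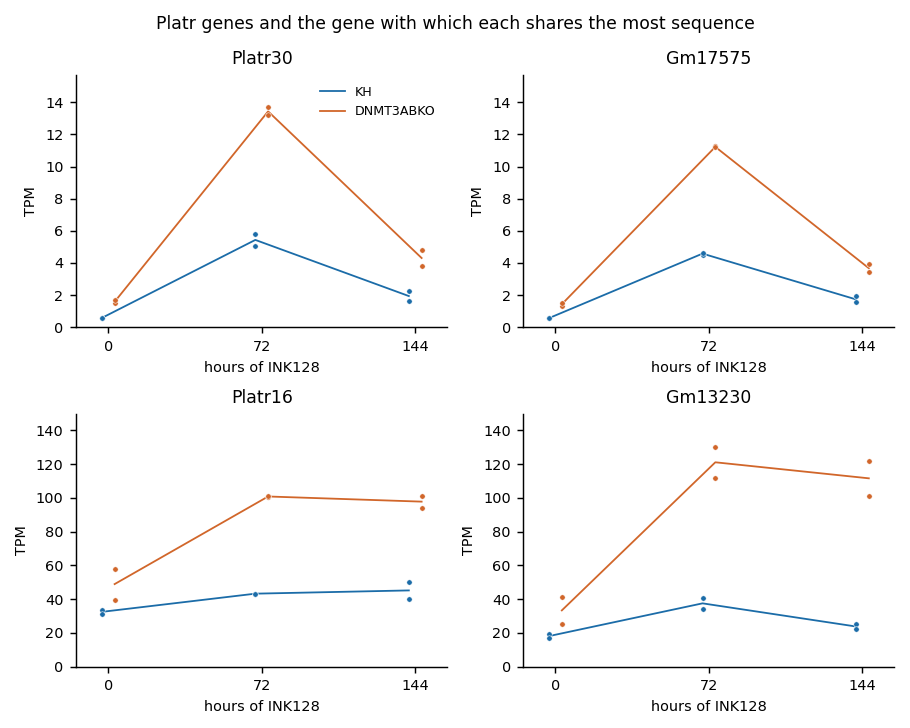
Levels (y axis, TPM, from 0, same scale within a row) against hours of INK128 (x axis) of Platr30 and Gm17575 (top) and of Platr16 and Gm13230 (bottom) in KH (blue) and DNMT3ABKO (orange); points are single libraries and lines join the means of 2. The top pair has nearly the same course and the bottom pair a similar one in DNMT3ABKO, with 72 h means in DNMT3ABKO of 13.4 and 11.2 TPM for the top pair and 101 and 121 TPM for the bottom pair.

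Since some noncoding RNAs move with the gene beside them, each member was set beside its nearest protein-coding gene within 50 kb. Such a gene existed for 21 members, and in 13 pairs both were tested. In KH at 72 h, 10 of the 13 members and 7 of the 13 neighbours were called, against 28.3% of all tested genes higher and 19.5% lower. In 5 pairs both were called. Of the called genes 9 members and all 7 neighbours were higher, so a shared direction follows from the separate counts. In DNMT3ABKO at 72 h 10 members and 8 neighbours were higher, against 34.3% of all tested genes (21.6% lower). Both were called in 6 pairs. Pearson's r across the 13 pairs was -0.10 and -0.02, given as a description, since pairs share libraries and genes are not independent replicates.

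Some pairs rose together at 72 h, not always in both lines. Platr20 and Gm12569 lie 55 bases apart on opposite strands, and at 72 h they rose by 1.12 and 0.94 on the log2 scale in KH and by 1.14 and 1.03 in DNMT3ABKO. Platr3 and Plcb4, a phospholipase C gene 6948 bases away, rose by 0.48 and 0.95 in KH and by 0.80 and 0.62 in DNMT3ABKO. Platr26 and Itga6, an integrin subunit gene, rose by 0.76 and 0.81 in DNMT3ABKO, while in KH Platr26 was not called (0.23, adjusted p = 0.308, limma). Platr17 with Daxx and Platr25 with Gm5141 were also called higher at 72 h in both lines. Beside Platr7 it was otherwise: Ckap4, an endoplasmic reticulum protein gene 13355 bases from Platr7, differed by -0.09 ± 0.09 in KH and 0.10 ± 0.09 in DNMT3ABKO at 72 h (SE, adjusted p = 0.46 and 0.412, limma).

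The members lower at 144 h in both lines had neighbours that were not lower. At 144 h in DNMT3ABKO, Platr14 was lower by 1.76 while Cstf3, a gene for an mRNA 3′ end processing factor 19094 bases away, was higher by 0.43 ± 0.12 (SE, adjusted p = 0.0111, limma). Platr10 was lower by 0.40 while Serpini1, a protease inhibitor gene 3951 bases away on the opposite strand, was higher by 0.57 ± 0.10 (adjusted p = 8.66e-04). In KH at 144 h the same neighbours differed by 0.09 ± 0.12 and 0.17 ± 0.10 and were not called.

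**Figure D5:**
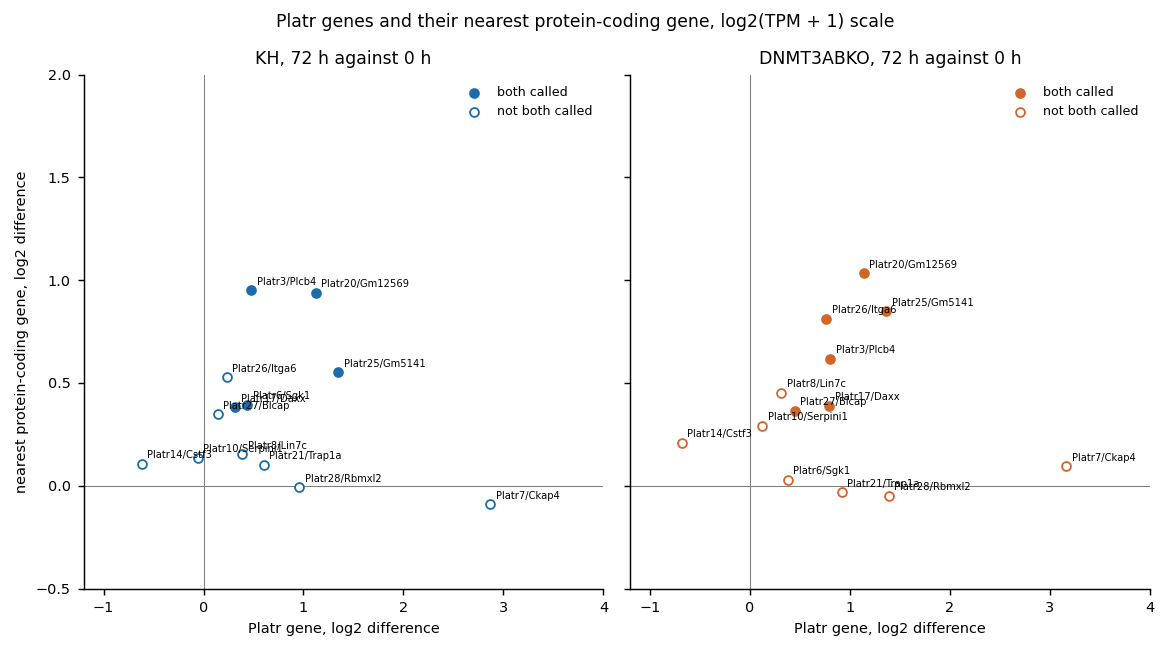
Difference at 72 h of the nearest protein-coding gene (y axis) against that of the Platr gene (x axis), both as log2 differences on the log2(TPM + 1) scale, for 13 pairs in KH (left) and DNMT3ABKO (right); filled points are pairs with both genes called. The filled pairs, 5 in KH and 6 in DNMT3ABKO, all lie above 0 on both axes, and Platr7 lies far right with its neighbour Ckap4 near 0.

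Named long noncoding RNAs outside the family give a setting for these values. Of 21 tested genes on a list that includes Malat1, Neat1, Meg3, Gas5 and Lncenc1, 12 were higher and 2 lower in KH at 72 h (median log2 difference 0.37), and 14 were higher and 3 lower in DNMT3ABKO (0.45). From 72 to 144 h, 8 were lower and 1 higher in KH, and 6 were lower and 1 higher in DNMT3ABKO. Lncenc1, to which RefSeq gives the synonym Platr18 and which is known to support naive pluripotency, was at 134 ± 8.61, 200.1 ± 2.41 and 146 ± 5.20 TPM over the 3 times in KH (SD, n = 2). In DNMT3ABKO it was at 149 ± 19.7, 266 ± 5.76 and 215 ± 5.65 TPM.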

How the data were processed

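Total RNA libraries (ribosomal RNA depletion with KAPA HyperPrep RiboErase, ERCC spike-in added) were made from 12 samples. The authors deposited gene levels as TPM, which sum to the same total in every library and hold no spike-in entries, so depth is unknown. The submitters' processing notes name cutadapt 2.4, STAR 2.7.3a and StringTie 2.0. The use of strand and of reads that match several genes is not given in the sources used here.

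Repeated entries of one gene identifier were summed. The 15727 genes that averaged 1 TPM or more were tested as log2(TPM + 1) with limma 3.58.1 in R 4.3.3, with a mean-variance trend, 6 group means, 11 contrasts and Benjamini-Hochberg adjustment over all tested genes, and calls were made at an adjusted p under 0.05. Fold changes on this scale understate the change of low genes. A count test was not used, since TPM are not counts. The code was checked on simulated data. Tables and figures used Python 3.11.15, pandas 2.3.3, NumPy 2.4.6 and matplotlib 3.10.9. Levels are given as mean ± SD over 2 replicates.

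Every member at 1 TPM or more in a library was named, with the nearest protein-coding gene within 50 kb, genes of the lists, and Dnmt3a and Dnmt3b. Members and lists were chosen with earlier results of these data known. The lists were naive and core pluripotency, exit from pluripotency, other named long noncoding RNAs, fibroblast, macrophage and 2-cell-like markers. Results were recomputed with 0.1 TPM as the pseudocount, without the filter, with median-ratio scaling, with only the groups of a contrast, with a replicate block, with a log2 difference of at least 1 required, and without each library in turn. The study states that time points of a replicate were handled in parallel, while the labels do not say that the replicate numbers mark this. Same-numbered replicates did not deviate together (correlations of -0.10 to 0.10 between groups of a line). The block (a centred term for the replicate number within each line) was therefore kept as an alternative, and its values are given for each call that it changes.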

Additional observations from a re-analysis of the deposited data

Results flagged for a closer look

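Platr11 responded differently in the 2 lines by a test of the difference itself (limma interaction of line and time). The difference in its log2 response, DNMT3ABKO minus KH, was -1.36 at 72 h (adjusted p = 0.008) and -0.99 at 144 h (adjusted p = 0.0228). Without replicate 2 of KH at 0 h, or without any 144 h library, the 144 h difference was -1.03 to -0.83 and was not called. Nor was it called with low genes kept in the fit (adjusted p = 0.054) or with a pseudocount of 0.1 TPM (adjusted p = 0.0586, limma). With 2 replicates in each group, no group could be searched for an outlying sample.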

How the results depend on the processing

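Of the 112 calls of members over the 11 comparisons, 80 held under every alternative that kept the call rule, and 0 changed direction. Keeping low genes in the fit ended 18 of the 112, more than any other alternative that kept the call rule. Among them in KH were Platr3, Platr6, Platr8 and Platr21 at 72 h, and Platr13 and Platr16 at 144 h. Among them between the lines were Platr3 at 0 h, Platr15 at 72 h, and Platr12 and Platr25 at 144 h. Requiring a log2 difference of at least 1 left 7 calls in KH at 72 h, 3 at 144 h and 1 from 72 to 144 h, 10, 7 and 4 in DNMT3ABKO, 1, 4 and 3 between the lines at 0, 72 and 144 h, and 0 for the difference in the 144 h response. Median-ratio scaling gave 7 calls between untreated lines and 2 calls in both tests of a difference in response, and it moved the all-gene median by -0.12 (log2) in DNMT3ABKO at 72 h and by less elsewhere. Testing only the groups of a contrast gave 1 call between untreated lines. With low genes kept in, 2 members differed in the 72 h response (Platr31 with Platr11), and Platr31 replaced Platr11 in the 144 h response. With a pseudocount of 0.1 TPM, 0 differed in the 144 h response. The cause of these shifts was not tested.

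Leaving out 1 library gave 11 to 18 calls in KH at 72 h, 11 to 15 at 144 h and 7 to 15 from 72 to 144 h, and 18 to 20, 11 to 14 and 9 to 14 in DNMT3ABKO. Between the lines it gave 1 to 7, 7 to 12 and 7 to 13 calls at 0, 72 and 144 h, and for the difference in response 1 to 7 at 72 h and 0 to 6 at 144 h. The replicate block gave 2 members for the difference in the 144 h response (Platr15 with Platr11) and changed no other count by more than 1.5 times. It ended 3 of the 112 calls (Platr8 in KH at 72 h, Platr26 in DNMT3ABKO at 144 h and Platr27 between the lines at 72 h) and added Platr16 in KH at 72 h, Platr3 in KH from 72 to 144 h (-0.43, adjusted p = 0.047, limma) and Platr5 between the lines at 72 h.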

Other observations

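Platr2, which never reached 1 TPM and was picked out after its values were seen, was at 0.0722 and 0.0871 TPM in untreated KH, 0.477 and 0.314 TPM after 72 h, and 0.460 and 0.564 TPM after 144 h. In DNMT3ABKO it was at 0.442 and 0.295, 0.757 and 0.731, and 0.846 and 0.775 TPM. In the fit without the filter it was called higher than at 0 h at both times in each line (log2 differences of 0.35 to 0.49, limma), and it shared 29.9% of its 50-base words with Gm26639. Depth behind these low values is unknown.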
